A study of Mus musculus with 2 samples.

Results

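The 7 genes described here are Cth, Cbs, Slc7a11, Chac1, Gclc, Gss and Ggt5, which carry cysteine from methionine or from extracellular cystine into glutathione and break glutathione down again. They were selected by name, with results of these same libraries known, for their UMIs by library and across marker-defined myeloid cells. The differences between the libraries below are therefore given as descriptions. The 7 genes are 7 of the 32285 genes in the count tables, and of 16327 genes with at least 20 unique molecular identifiers (UMIs) summed over both libraries, all 7 are included. The libraries hold myeloid-derived suppressor cells (MDSCs), immature myeloid cells that restrain T cells. Bone marrow came from 10-week-old female C57BL/6 mice and was grown with IL-6 and GM-CSF (both 50 ng/mL) until day 4. One culture received 1.5 µM dabrafenib (DAB), an inhibitor of the kinase BRAF, and the other received DMSO, the solvent. For each condition 1 library of the 10x Genomics 5′ v2 chemistry was made, and the sources used here do not give the number of mice. The culture is a mixture of myeloid cells and not a sorted population.

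Cysteine is the limiting amino acid of glutathione, the main small thiol of the cell. It can be made from methionine by transsulfuration, in which cystathionine beta-synthase (Cbs) joins homocysteine to serine and cystathionine gamma-lyase (Cth) releases cysteine. It can also enter as cystine through the exchanger xCT, whose light chain is Slc7a11 and whose heavy chain is Slc3a2. Glutamate-cysteine ligase, with the catalytic subunit Gclc and the modifier subunit Gclm, and then glutathione synthetase (Gss) build the tripeptide. Chac1 cleaves glutathione in the cytosol, and Ggt5 is a gamma-glutamyl transferase of the cell surface that acts on glutathione outside the cell. Cth, Slc7a11 and Chac1 are known targets of ATF4, the transcription factor that is translated when a kinase such as GCN2 phosphorylates eIF2 alpha, and Slc7a11, Gclc and Gclm are known targets of NRF2, the factor of the antioxidant response. Suppressive myeloid cells are known for taking cystine from their surroundings.

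The DMSO library kept 9032 cells with 93024998 UMIs (median 7577 per cell) and the DAB library 10476 cells with 141576822 UMIs (median 9487). The DAB cells were thus deeper, and 152 barcodes occurred in both libraries. The cells fell into 24 clusters, lettered A to X, from a clustering that did not use the 7 genes, their pathway or ATF4 targets. Of these, 13 clusters took a name from fixed marker genes and 39.5% of DMSO and 34.8% of DAB cells stayed unnamed. There were 6 myeloid classes with at least 100 cells in each library. They were granulocyte progenitor-like (361 DMSO and 451 DAB cells), intermediate granulocyte-like (1825 and 1329), chemokine-high granulocyte-like (672 and 1791), mature polymorphonuclear (PMN)-like (519 and 947), immature monocyte-like (1191 and 1325) and mature monocyte-like (457 and 557). Granulocyte-like, PMN-like or monocyte-like names thus covered most of the named cells, and dendritic cell-like, macrophage-like and basophil or mast cell-like cells were few. The immature monocyte-like cluster was led by Mmp12 but also by Il2ra and Cd200r3. The markers of the chemokine-high granulocyte-like name are chemokine genes, with S100a8 or Csf3r required beside them. Its cluster F, with 958 of the 1791 DAB cells, was led by Ccl4 and Ccl3 but also by Gpnmb, Atp6v0d2 and Mpeg1. That these cells are granulocytes is therefore less certain than the name. B cell-like cells (147 and 193) served as a check on free RNA for genes that they lack. Levels are UMIs summed over cells and divided by all UMIs of the same cells and multiplied by 1000000 (CPM), with 95% Poisson intervals. Ratios are log2 of DAB over DMSO with an exact 95% interval, and all intervals cover counting error only. A gene is called higher or lower where its log2 ratio lies 0.5 or more from 0 and the interval does not reach 0. Since each condition is a single library, replicate spread is unknown, no test was made and no p-value is given.

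Over all cells, 3 of the 7 genes were higher in the DAB library and 1 was lower, where 13.9% of all 16327 genes were called higher and 16.9% lower by the same rule. Cth had 26 UMIs in the DMSO library (0.279 CPM) and 4431 in the DAB library (31.3 CPM, interval 30.4 to 32.2), a 112-fold difference (interval 76.3 to 172; log2 6.81). By its ratio Cth ranked 5 among the 16303 genes that had one. Slc7a11 had 97.7 CPM (95.7 to 99.7) in DMSO and 171 CPM (169 to 173) in DAB, a log2 ratio of 0.81 (0.77 to 0.84). Chac1 had 3.90 CPM (3.51 to 4.33) in DMSO and 27.4 CPM (26.5 to 28.2) in DAB, a 7.01-fold difference (log2 2.81, 2.65 to 2.97). The gene of glutathione synthetase was the one called lower, a call that ended under other scalings described at the end. Gss had 18.6 CPM (17.7 to 19.5) in DMSO and 12.3 CPM (11.8 to 12.9) in DAB, a log2 ratio of -0.59 (-0.69 to -0.49). Gclc, at 12.2 and 15.5 CPM, had a log2 ratio of 0.34 (0.24 to 0.45), and Ggt5, at 18.5 and 14.2 CPM, one of -0.39 (-0.48 to -0.29). Neither passed the rule. Cbs was almost undetected, with 7 UMIs in the DMSO and 15 in the DAB library (log2 0.49, -0.89 to 2.03). Of both transsulfuration enzymes, then, only Cth was measured well enough to compare.

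**Figure D1:**
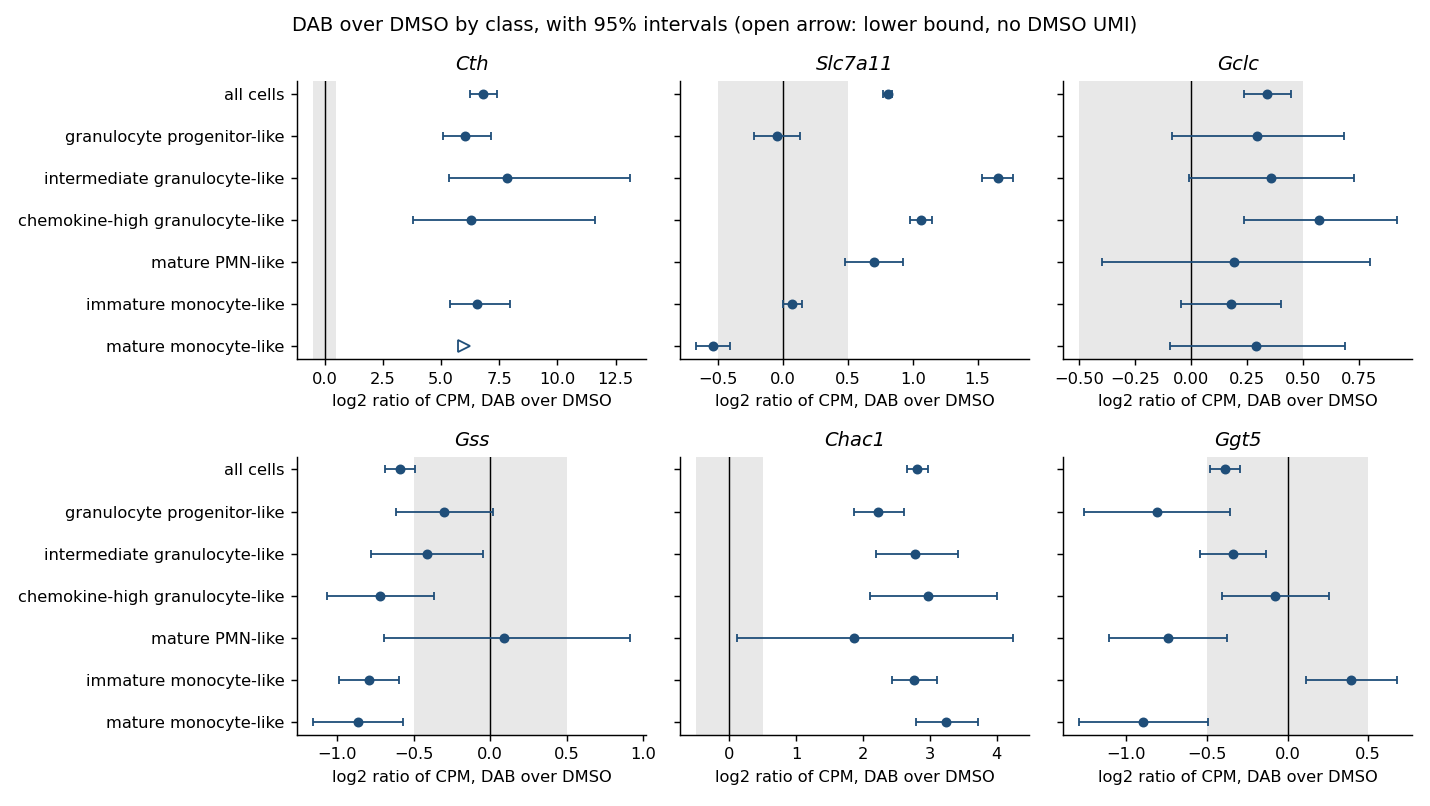
Log2 ratio of CPM, DAB over DMSO, for 6 of the 7 genes, over all cells and within 6 marker-defined classes (points, with 95% counting intervals as bars; 1 library per condition). The grey band spans log2 ratios under 0.5 in size, and the open arrow marks a class with no DMSO UMI, set against a floor of 3 UMIs. The exact interval of that class starts lower than the arrow, at a log2 ratio of 5.66. The points of Cth and Chac1 lie to the right of the band wherever drawn (Cth had too few UMIs in mature PMN-like cells), while Slc7a11 runs from -0.54 in mature monocyte-like to 1.66 in intermediate granulocyte-like cells.

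The promoters of Slc7a11 and Chac1 are shown because both genes are higher over all cells and because a core of the C/EBP-ATF response element, the site through which ATF4 acts with C/EBP partners, can be looked for in them. RefSeq promoter windows on GRCm38.p6, 250 bases before and 50 after the start, matched 4 of the 7 genes: Cbs, Slc7a11, Chac1 and Gss. Cth, Gclc and Ggt5 are named only. The core searched was TGATGNAA on both strands, which occurs in 1304 of 32851 promoter windows (3.97%). Capitals mark the matches.

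Slc7a11 (chr3:50443564-50443863, minus strand): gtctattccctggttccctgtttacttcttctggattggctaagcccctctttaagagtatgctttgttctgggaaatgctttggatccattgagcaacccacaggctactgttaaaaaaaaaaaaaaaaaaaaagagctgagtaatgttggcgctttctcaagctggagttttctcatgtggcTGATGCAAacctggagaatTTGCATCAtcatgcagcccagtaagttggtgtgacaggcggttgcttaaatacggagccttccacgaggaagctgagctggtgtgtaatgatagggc
Chac1 (chr2:119350992-119351291, plus strand): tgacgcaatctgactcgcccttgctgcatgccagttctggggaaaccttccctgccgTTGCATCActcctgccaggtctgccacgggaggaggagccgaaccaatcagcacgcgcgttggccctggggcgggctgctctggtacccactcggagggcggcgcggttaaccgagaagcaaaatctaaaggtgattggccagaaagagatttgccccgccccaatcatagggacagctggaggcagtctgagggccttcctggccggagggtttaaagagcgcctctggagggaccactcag

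Slc7a11 held 2 matches, on opposite strands and with their first bases 66 and 47 bases upstream of the start. Chac1 held 1, on the reverse strand, 193 bases upstream. The windows of Cbs and Gss held none. The core of the antioxidant response element, TGACNNNGC on both strands, occurs in 12.4% of promoter windows and was in none of these 4. A match is a run of letters and not a bound site, and the absence of one concerns only these 300 bases.

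Of the transsulfuration enzymes, Cth was called higher in DAB in 5 of 6 classes, and it was found in almost no DMSO cell. No class held more than 9 Cth UMIs in DMSO, so the minimum of 20 was met only through DAB cells. Cth (ENSMUSG00000028179) lies on chromosome 3 of GRCm38 from 157894248 to 157925077, minus strand. In granulocyte progenitor-like cells, 9 DMSO UMIs stood against 1121 DAB UMIs, or 1.27 CPM (0.581 to 2.41) against 83.0 CPM (78.2 to 88.0), a log2 ratio of 6.03 (5.10 to 7.16). This class held 25.3% of the Cth UMIs of the DAB library and 9.54% of all its UMIs. Immature monocyte-like cells had 6 and 763 UMIs, with 25.8 CPM (24.0 to 27.7) in DAB and a log2 ratio of 6.53 (5.40 to 7.98). Mature monocyte-like cells had no DMSO UMI and 353 DAB UMIs (20.5 CPM, 18.4 to 22.7). With the DMSO class set to a floor of 3 UMIs this is 62.7-fold, and the exact interval starts at 50.7-fold. Intermediate granulocyte-like cells had 1 and 255 UMIs (18.1 CPM in DAB, 15.9 to 20.5), a log2 ratio of 7.82 with a wide interval of 5.33 to 13.13. Chemokine-high granulocyte-like cells had 1 and 198 UMIs (13.6 CPM in DAB, 11.8 to 15.6), a log2 ratio of 6.29 (3.79 to 11.60). Mature PMN-like cells, the shallowest class with medians of 2418 and 2772 UMIs, had none in DMSO and 9 in DAB (3.13 CPM, 1.43 to 5.93), too few for a call. Under 4 other clusterings this class had enough UMIs and was called higher, in 2 of them with no DMSO UMI. The minimum was again met through DAB cells, so these calls add no support. In DAB, Cth thus ran from granulocyte progenitor-like through immature monocyte-like, mature monocyte-like, intermediate and chemokine-high granulocyte-like to mature PMN-like cells. The intervals of mature monocyte-like and intermediate granulocyte-like cells overlapped, and so did those of mature PMN-like and B cell-like cells. B cell-like cells held 1 Cth UMI in each library, and 70 activated dendritic cell-like cells of the DAB library, with a median of 18576 UMIs, held 2 (1.49 CPM).

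Cth was also high in unnamed DAB clusters. Cluster K, led by Chil3, Gal and S100a9, had no Cth UMI in 471 DMSO cells and 366 in 342 DAB cells (66.6 CPM). Cluster M, led by stefin A family genes, had none in 164 DMSO cells and 611 in 495 DAB cells (57.0 CPM). Of 17 clusters other than B cell-like with at least 100 cells in each library, 15 held at least 20 Cth UMIs, and all 15 were higher in DAB. The other two, C and O, had no DMSO UMI, and their DAB cells held 9 and 15. No cluster held more than 9 Cth UMIs in DMSO. The minimum of 20 was therefore met only through DAB cells, and the 15 calls add no separate support.

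**Figure D2:**
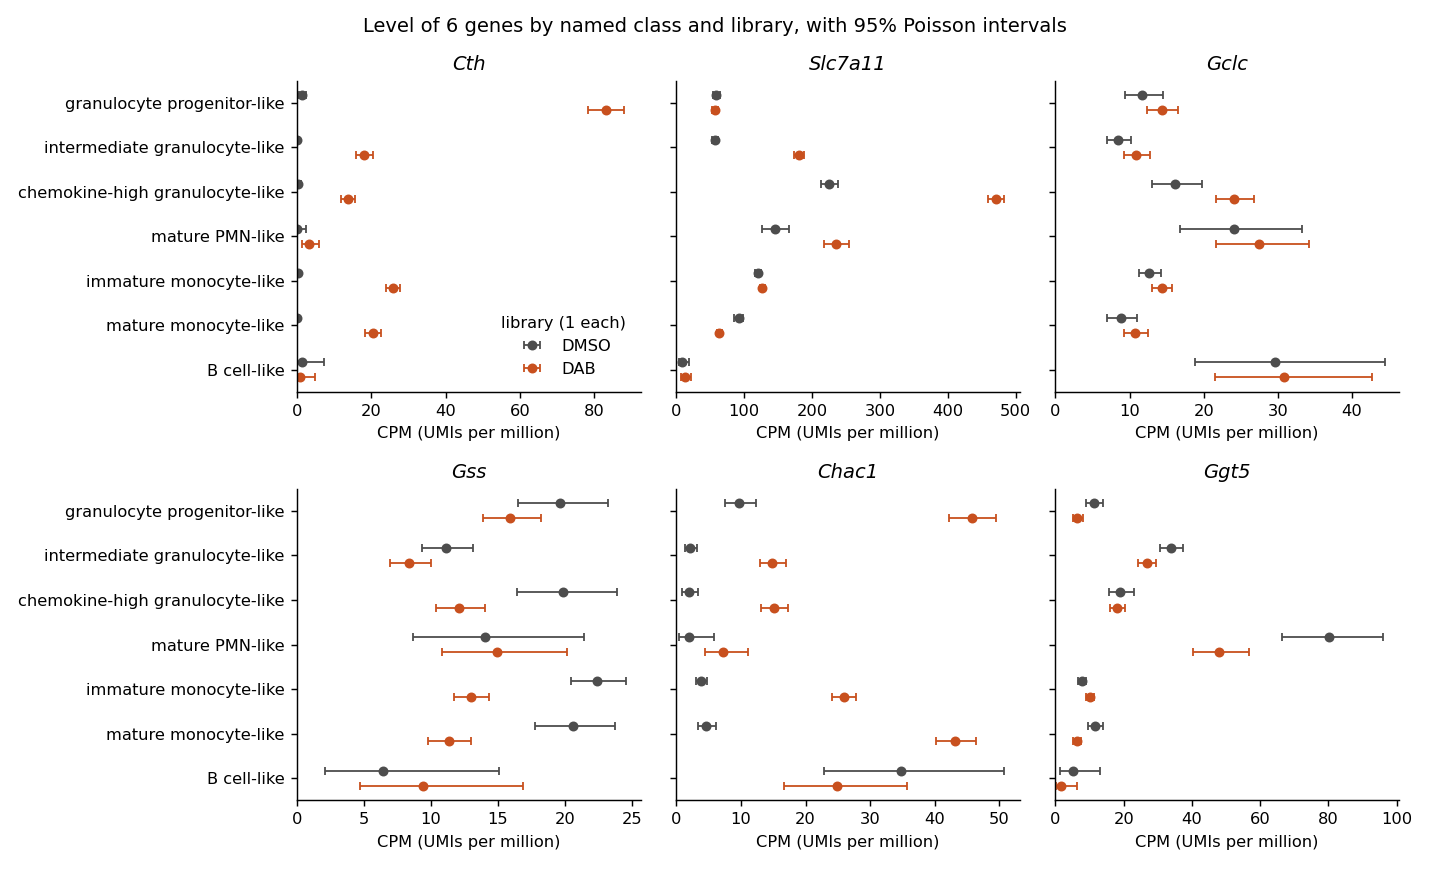
Level in CPM (points, with 95% Poisson intervals as bars) of 6 of the 7 genes in 6 myeloid classes and in B cell-like cells, for the DMSO (dark grey) and DAB (orange) libraries, 1 library each. Cth stands at 83.0 CPM in granulocyte progenitor-like DAB cells and near 0 in every DMSO class, and Ggt5 is highest in mature PMN-like cells of both libraries.

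Counted per cell, Cth in DAB was carried by a minority in most classes. In granulocyte progenitor-like cells, 63.4% held at least 1 UMI and 19.96% at least 5, with a highest count of 26 in 1 cell. The mean there was 2.49 UMIs per cell, against 0.0249 in DMSO. The share with a UMI was 28.7% in mature monocyte-like, 24.3% in immature monocyte-like, 11.1% in intermediate granulocyte-like, 7.43% in chemokine-high granulocyte-like and 0.739% in mature PMN-like cells. These shares follow depth as well as level. With every cell thinned to 1500 UMIs, a Cth UMI remained in 1 of 8602 DMSO cells (0.0116%, 0.000294 to 0.0648) and in 2.58% of 10186 DAB cells (2.28 to 2.91), where the unthinned shares were 0.233% and 16.9%. Thinning left out 430 DMSO and 290 DAB cells. In thinned B cell-like cells it was found in 0 of 136 and 0 of 180, with intervals that reach 2.68% and 2.03%. Their median depths before thinning were 4124 and 5418.5, against 8059 and 9868 over all cells. The thinned share remained largest in granulocyte progenitor-like DAB cells, at 8.72% (6.28 to 11.7).

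**Figure D3:**
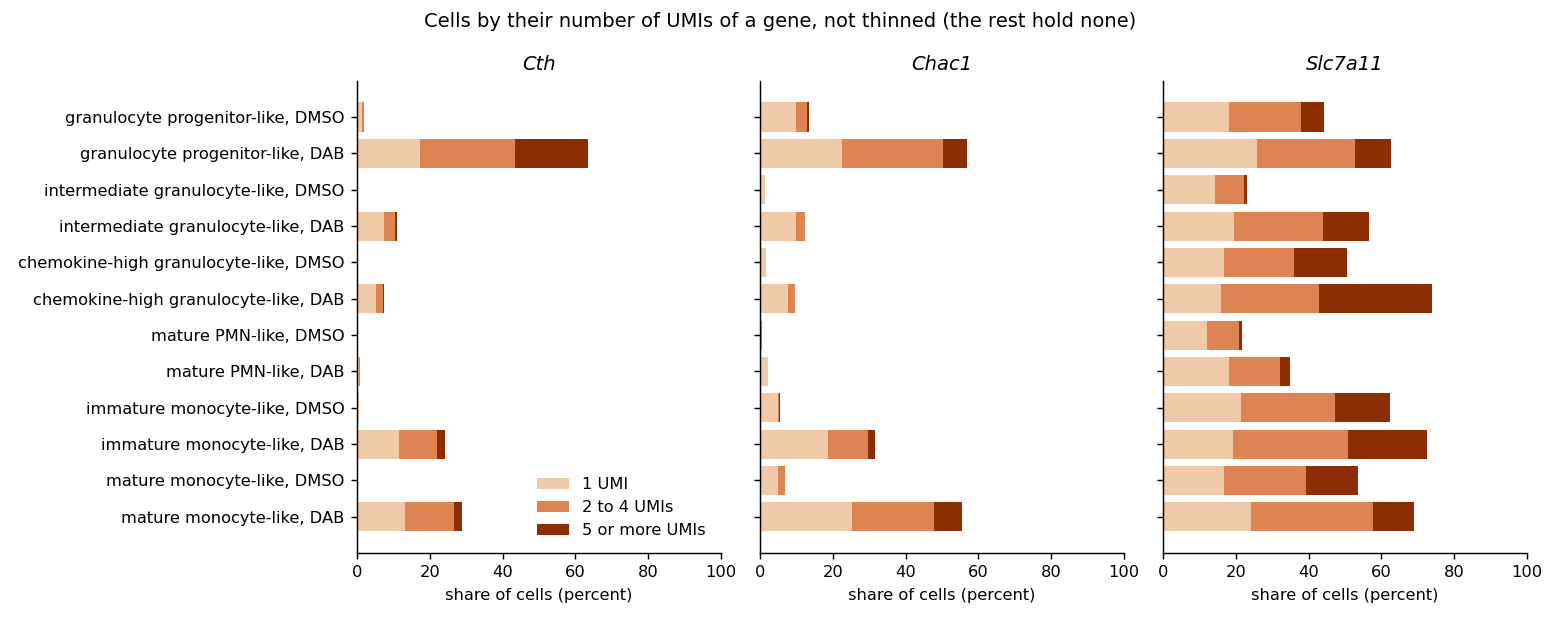
Share of cells (percent) that held 1, 2 to 4, or 5 or more UMIs of Cth, Chac1 and Slc7a11, in 6 classes of the DMSO and DAB libraries, not thinned; the rest of each bar to 100 held none. Cth bars are close to 0 in all DMSO classes and reach 63.4% in granulocyte progenitor-like DAB cells, while Slc7a11 is present in 21.8% or more of the cells in every class of both libraries.

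Within a class, cells with Cth held Chac1 or Slc7a11 in a larger share than cells without it, and they were also deeper. Among granulocyte progenitor-like DAB cells, 67.8% of 286 cells with Cth (62.1 to 73.2) and 38.2% of 165 cells without it (30.7 to 46.1) held a Chac1 UMI, at median depths of 33158 and 22946 UMIs. For Slc7a11 the shares were 66.8% (60.997 to 72.2) and 55.2% (47.2 to 62.9), with overlapping intervals. Among chemokine-high granulocyte-like DAB cells, 93.2% of 133 cells with Cth and 72.3% of 1658 without it held Slc7a11, at 14609 and 5366 UMIs. The part of depth in these differences was not tested.

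Of the methionine cycle and transsulfuration genes, 11 of 14 had at least 20 UMIs. In DAB 3 were higher and 1 lower, beside 13.9% and 16.9% of all genes. Their median log2 ratio was 0.05, beside -0.02 for all genes. Mat2a, the S-adenosylmethionine synthetase of most tissues, was at 28.7 CPM in DMSO and 56.3 CPM in DAB (log2 0.97, 0.91 to 1.04). Mtrr, which reactivates methionine synthase, was just inside the rule (log2 0.51), while Ahcy, which releases homocysteine, was lower (log2 -0.62). Among 11 genes of hydrogen sulfide and cysteine catabolism, where Cth also acts, none was higher and 4 were lower, beside 13.9% and 16.9% of all genes. Mpst, which makes sulfide from mercaptopyruvate, had a log2 ratio of -0.89 (57.3 and 30.9 CPM), and Ethe1, which oxidises persulfides in mitochondria, one of -0.78 (77.8 and 45.3 CPM). Tst and Tstd1, both sulfurtransferases, were the other two (log2 -0.68 and -1.13).

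For cystine uptake the data give UMIs of the exchanger's genes and not uptake itself. Slc7a11 (ENSMUSG00000027737, chromosome 3 from 49892526 to 50443614, minus strand) was higher in DAB in 3 of 6 classes, the intermediate granulocyte-like, chemokine-high granulocyte-like and mature PMN-like cells. In intermediate granulocyte-like cells it had 57.5 CPM (53.4 to 61.9) in DMSO and 181 CPM (174 to 188) in DAB, a log2 ratio of 1.66 (1.54 to 1.78). Clusters B, J and O make up this class in unlike shares, with 743 DMSO but 258 DAB cells in J, and the ratio within them was 1.32, 1.96 and 1.16. Chemokine-high granulocyte-like cells, clusters F and G, had the highest levels of any compared class in both libraries, at 226 CPM (213 to 238) and 471 CPM (460 to 482), with a log2 ratio of 1.06 (0.98 to 1.15). Mature PMN-like cells had 145 CPM (126 to 166) and 235 CPM (218 to 254), a log2 ratio of 0.70 (0.48 to 0.93).

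The progenitor and monocyte classes were not called higher. Slc7a11 stood at 59.0 CPM (53.5 to 64.97) in DMSO and 57.1 CPM (53.1 to 61.3) in DAB in granulocyte progenitor-like cells, a log2 ratio of -0.05 (-0.22 to 0.13). Immature monocyte-like cells had 121 and 127 CPM (log2 0.07, -0.00 to 0.14). Mature monocyte-like cells were lower in DAB, at 91.8 CPM (85.7 to 98.2) against 63.1 CPM (59.4 to 66.9), a log2 ratio of -0.54 (-0.67 to -0.41). That call rests on the scaling to depth. The median depth of this class was 19652 UMIs in DMSO and 30468 in DAB, the mean Slc7a11 count per cell was 1.85 and 1.95, and after thinning 9.73% (7.16 to 12.8) and 8.29% (6.13 to 10.9) of cells held a UMI, against 53.6% and 68.9% before. Under 6 other clusterings the ratio ran from -0.62 to -0.37 and was called lower in 2. In immature monocyte-like cells it ran from -0.04 to 0.90 and was called higher in 1 of 6, and in granulocyte progenitor-like cells from -0.12 to 0.74 and higher in 1 of 5. The 3 classes called higher above were called higher under all 6, with ratios from 0.72 to 2.00. Outside the compared classes, and named after their values were seen, macrophage-like cells had 135 and 337 CPM (log2 1.32, 1.02 to 1.62), activated dendritic cell-like cells 73.4 and 121 CPM (log2 0.72, 0.41 to 1.03) and basophil or mast cell-like cells 35.0 and 91.1 CPM (log2 1.38, 0.37 to 2.57). All 3 were called higher. So was unnamed cluster P, led by Spp1, Ccl2 and Lpl and nearest to the immature monocyte markers (log2 0.53, 0.36 to 0.69). B cell-like cells had 9.02 CPM (3.63 to 18.6) and 12.8 CPM (7.19 to 21.2), below every compared class.

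Across the 17 clusters, Slc7a11 was higher in DAB in 12 and lower in the mature monocyte-like cluster I, and A, L, M and R passed in neither direction. The largest ratio was in cluster N, at 176 and 726 CPM (log2 2.05, 1.82 to 2.27). This unnamed cluster was led by Gm26917, Gria3, Pgr and Kcnq5 and had median depths of 2894.5 and 4073 UMIs. Slc7a11 spans 551 kb in the annotation, and the sources used here do not say whether intronic reads were counted. Without cluster N the log2 ratio over all cells was 0.76. Among cells thinned to 1500 UMIs, 11.4% in DMSO (10.7 to 12.1) and 23.2% in DAB (22.4 to 24.1) held Slc7a11 (35.4% and 59.5% unthinned). Beside these stood 0 of 136 (interval up to 2.68%) and 1.11% of 180 B cell-like cells at the depths given for Cth.

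**Figure D4:**
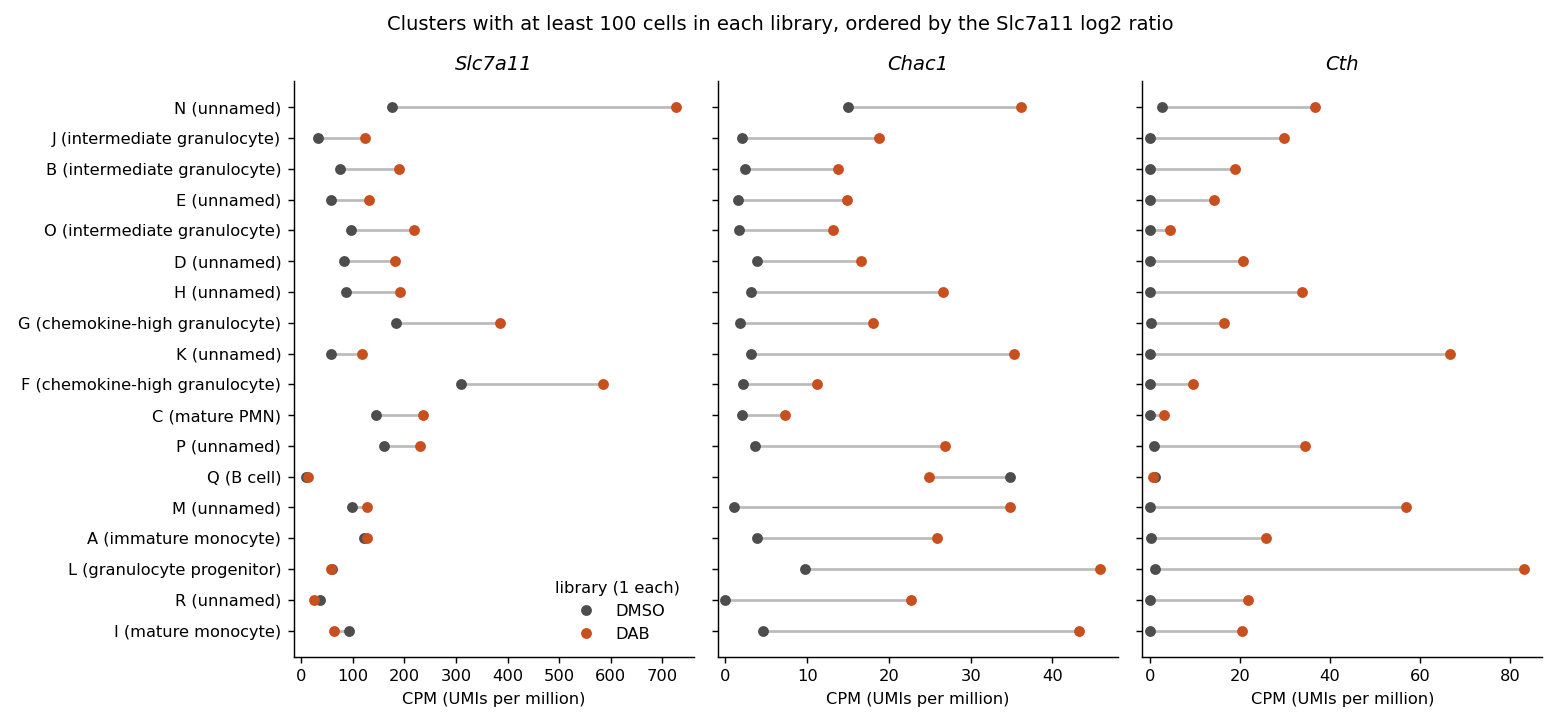
Level in CPM of Slc7a11, Chac1 and Cth in each cluster with at least 100 cells in both libraries (rows, with the class in brackets and the B cell-like cluster Q included), for DMSO (dark grey) and DAB (orange), 1 library each, ordered by the Slc7a11 log2 ratio. Slc7a11 is lower in DAB in cluster I (91.8 and 63.1 CPM) and much higher in N (176 and 726 CPM), whereas the DAB point of Cth is highest in L (83.0 CPM), K (66.6 CPM) and M (57.0 CPM).

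The heavy chain of xCT, Slc3a2, which also pairs with other amino acid transporters, had 116 CPM in DMSO and 266 CPM in DAB (log2 1.19, 1.16 to 1.23). Its ratio was between 1.05 and 1.30 in 5 classes, the mature monocyte-like class included (144 and 298 CPM, log2 1.05), and 0.35 in mature PMN-like cells. In mature monocyte-like cells, then, the chains of the exchanger differed in opposite directions, with the limits just given for Slc7a11. Of 7 transport genes with at least 20 UMIs, 4 were higher and 1 lower, beside 13.9% and 16.9% of all genes. Their median log2 ratio was 0.81. Slc1a5, a transporter of neutral amino acids such as glutamine, had a log2 ratio of 1.57 (29.6 and 88.0 CPM). Slc1a4, a related transporter, was low in both libraries (1.04 and 7.66 CPM, log2 2.88), and Mfsd12, which brings cysteine into lysosomes and melanosomes, was the lower one (log2 -0.69).

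The enzymes of glutathione synthesis come next. Gclc (ENSMUSG00000032350, chromosome 9 from 77754535 to 77794485, plus strand) was called higher in 1 of 6 classes, the chemokine-high granulocyte-like cells, at 16.2 CPM (13.1 to 19.8) in DMSO and 24.1 CPM (21.6 to 26.7) in DAB (log2 0.57, 0.24 to 0.92). The ratio was between 0.18 and 0.36 in the other classes, with intervals that included 0 in each. Under 6 other clusterings the chemokine-high value ran from 0.40 to 0.71 and was called in 5. Within this class, cluster F was called higher (log2 0.84, 0.33 to 1.39) and G was not (0.14, -0.32 to 0.62). Cluster B of the intermediate granulocyte-like class (0.63, 0.12 to 1.15) and unnamed E (0.59, 0.01 to 1.17) were also called higher, while J was at -0.40. Of 16 clusters tested for Gclc, 3 were thus higher and none was lower. B cell-like cells had 29.6 and 30.8 CPM, so they give no measure of free RNA for Gclc. A group outside the compared classes, 31 DMSO and 81 DAB basophil or mast cell-like cells, had 5 and 67 Gclc UMIs (19.5 and 92.5 CPM, log2 2.25, 0.96 to 3.92). This was named after its value was seen.

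Gss (ENSMUSG00000027610, chromosome 2 from 155563181 to 155592810, minus strand) was lower in DAB in 3 classes. In immature monocyte-like cells it had 22.4 CPM (20.5 to 24.5) and 12.97 CPM (11.7 to 14.3), a log2 ratio of -0.79 (-0.99 to -0.59). In mature monocyte-like cells the values were 20.6 and 11.3 CPM (log2 -0.86, -1.16 to -0.57), and in chemokine-high granulocyte-like cells 19.9 and 12.1 CPM (log2 -0.72, -1.07 to -0.36). Mature PMN-like cells had 14.0 CPM (8.68 to 21.4) and 14.9 CPM (10.8 to 20.1), where the interval of the ratio ran from -0.69 to 0.92. These calls held under 5, 6 and 5 of 6 other clusterings, and intermediate granulocyte-like cells (11.1 and 8.38 CPM, log2 -0.41) passed the rule under 4. Within that class only cluster J, with 743 DMSO but 258 DAB cells, was called lower (log2 -1.07, -1.86 to -0.34). Clusters B and O were at -0.08 and 0.21. By cluster, Gss was lower in 9 of 17 and higher in none. Gclm, the partner of Gclc, had 185 and 189 CPM over all cells (log2 0.03, 0.01 to 0.06). Of the 3 synthesis genes none was therefore called higher over all cells and Gss was called lower, beside 13.9% and 16.9% of all genes. Their median log2 ratio was 0.03.

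The cytosolic breakdown enzyme Chac1 was higher in DAB in each of the 6 classes. Chac1 (ENSMUSG00000027313, chromosome 2 from 119351229 to 119354381, plus strand) had its highest levels among these 6 classes in granulocyte progenitor-like cells, at 9.74 CPM (7.58 to 12.3) in DMSO and 45.8 CPM (42.2 to 49.5) in DAB, a log2 ratio of 2.23 (1.87 to 2.61). Mature monocyte-like cells reached 43.2 CPM (40.1 to 46.4) from 4.57 CPM (3.29 to 6.18), a log2 ratio of 3.24 (2.79 to 3.73). The DAB intervals of these 2 classes overlapped. Immature monocyte-like cells had 3.81 and 25.9 CPM (log2 2.77, 2.44 to 3.11). Intermediate granulocyte-like cells, at 2.16 and 14.8 CPM (log2 2.78, 2.20 to 3.41), and chemokine-high granulocyte-like cells, at 1.92 and 15.1 CPM (log2 2.98, 2.11 to 4.00), lay side by side in DAB. Mature PMN-like cells had 3 UMIs in DMSO and 21 in DAB (2.00 and 7.29 CPM), and their ratio of 1.86 carried an interval of 0.12 to 4.25.

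By cluster, Chac1 was higher in 17 of 17, with ratios from 1.27 in N to 5.11 in M, where DMSO held 2 UMIs. Cluster R had none in DMSO and 25 in DAB. B cell-like cells were an exception among the large groups, at 34.8 CPM (22.9 to 50.6) in DMSO and 24.8 CPM (16.6 to 35.7) in DAB, a log2 ratio of -0.49 (-1.29 to 0.33). The 27 DMSO UMIs lay in 7 of 147 cells and the 29 DAB UMIs in 15 of 193, so a few cells carry these levels and the Poisson interval is too narrow. Since B cell-like cells held Chac1 in both libraries, they give no measure of free RNA for this gene. The share of all cells with Chac1 after thinning was 0.488% in DMSO (0.352 to 0.659) and 2.64% in DAB (2.34 to 2.97), against 2.21% and 2.22% in B cell-like cells, and the unthinned shares were 2.98% and 20.1%. In mature monocyte-like DAB cells it was 5.95% (4.13 to 8.25) after thinning and 55.5% before.

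Ggt5 (ENSMUSG00000006344, chromosome 10 from 75589340 to 75617200, plus strand), the surface enzyme, was lower in DAB in 3 classes. It was highest in mature PMN-like cells, at 80.2 CPM (66.5 to 95.9) in DMSO and 47.9 CPM (40.3 to 56.6) in DAB, a log2 ratio of -0.74 (-1.11 to -0.38). Intermediate granulocyte-like cells followed, at 33.9 and 26.8 CPM (log2 -0.34, -0.54 to -0.14). Within that class, clusters B (50.6 and 29.8 CPM, log2 -0.76) and O (51.9 and 33.7 CPM, log2 -0.62) were called lower, while J, whose share of the class differs most between the libraries, had 14.6 and 13.1 CPM (log2 -0.15). Chemokine-high granulocyte-like cells had 19.0 and 18.0 CPM (log2 -0.08, -0.41 to 0.26). Mature monocyte-like cells, at 11.6 and 6.26 CPM (log2 -0.89, -1.29 to -0.50), and granulocyte progenitor-like cells, at 11.3 and 6.44 CPM (log2 -0.81, -1.27 to -0.35), were both called lower. Immature monocyte-like cells stood the other way, at 7.66 CPM (6.54 to 8.92) and 10.1 CPM (8.95 to 11.3), a log2 ratio of 0.39 (0.11 to 0.68) that missed the rule and passed it under 2 of 6 other clusterings. The mature monocyte-like call held under all 6, the mature PMN-like call under 4 of 6 and the granulocyte progenitor-like call under 4 of 5. B cell-like cells had 4 and 2 UMIs.

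Of the glutathione breakdown and export genes, 18 of 20 had at least 20 UMIs, and 3 were higher and 3 lower. These shares lie near the 13.9% and 16.9% of all genes called higher and lower, and the median log2 ratio was 0.07. Besides Chac1, its relative Chac2 (log2 0.51) and Dpep3, a membrane dipeptidase (log2 0.96), were higher. Ggt1, the best known gamma-glutamyl transferase (log2 -1.07), its relative Ggt7 (-1.28, from 16 and 10 UMIs) and Oplah, which recycles 5-oxoproline to glutamate (-0.82), were lower. The exporter gene Abcc1 had a log2 ratio of 0.23. These genes, below 20 CPM in both libraries apart from Chac1 and Abcc1, were named after their values were seen.

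The number of genes called differed between classes. Of the 6 genes with at least 20 UMIs in immature monocyte-like cells, 2 were higher and 1 lower, where 12.7% and 20.4% of all genes tested were called higher and lower. In mature monocyte-like cells, 2 of 6 were higher and 3 lower, beside 16.9% and 19.8% of all genes. Granulocyte progenitor-like cells had 2 of 6 higher and 1 lower, beside 16.0% and 19.2%. Intermediate granulocyte-like cells had 3 of 6 higher and none lower, beside 23.1% and 13.7%. Chemokine-high granulocyte-like cells had 4 of 6 higher and 1 lower, beside 8.46% and 13.3%. Mature PMN-like cells, with 5 genes tested, had 2 higher and 1 lower, beside 13.8% and 8.78%. Since the genes were chosen on this comparison, the counts only describe it. Over the 6 classes this gave 15 pairs of gene and class higher and 7 lower. Cbs had too few UMIs in every class, and the most in any 1 class of either library was 2.

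Among 35 enzymes that use glutathione or thioredoxin, 29 were not called, 2 were higher and 4 lower, no larger shares than the 13.9% and 16.9% of all genes, with a median log2 ratio of -0.13. Txn2, the mitochondrial thioredoxin, was higher (68.7 and 114 CPM, log2 0.73), and so was Glrx5, a mitochondrial glutaredoxin (58.9 and 92.1 CPM, log2 0.65). Mgst1, a microsomal glutathione transferase, was lower (284 and 116 CPM, log2 -1.29), as was its relative Mgst3 (log2 -0.73). Gpx3, the secreted glutathione peroxidase, and Gstm5 were the other lower genes, at log2 ratios of -1.12 and -0.91. In intermediate granulocyte-like cells the count was 13 higher and 2 lower of 33, beside 23.1% and 13.7% of all genes of that class. The median was 0.47 beside 0.12 for all genes of that class.

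Of 14 targets of NRF2 outside the pathway, 1 was higher in DAB and 7 were lower, and the median of their log2 ratios was -0.38, beside 13.9% and 16.9% of all genes called. By class the counts ran from 7 or 8 of 14 lower in the monocyte and progenitor classes to 3 of 13 in intermediate granulocyte-like, 4 of 13 in mature PMN-like and 1 of 13 in chemokine-high granulocyte-like cells, where 2 were higher. Of all genes, 19.2% to 20.4% were called lower in the monocyte and progenitor classes. The share was 13.7% in intermediate granulocyte-like, 8.78% in mature PMN-like and 13.3% in chemokine-high granulocyte-like cells, where 8.46% were higher. The median in mature PMN-like cells was 0.04. Abcc5, an exporter, had 28.2 CPM in DMSO and 6.60 CPM in DAB (log2 -2.10). Blvrb and Hmox1, both enzymes of heme breakdown, had log2 ratios of -1.14 each, at 352 and 159 CPM and at 329 and 149 CPM. Ftl1, the ferritin light chain, was at -0.68. Osgin1 was the higher one (log2 0.65).

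Targets of ATF4 outside the pathway were higher in 22 of 26 and lower in 2, beside 13.9% and 16.9% of all genes. Their median log2 ratio was 1.62. Stc2, a secreted glycoprotein, had a log2 ratio of 3.28 (5.57 and 54.0 CPM), Atf5 one of 2.78 (22.5 and 155 CPM), Trib3 one of 2.64 and Asns, asparagine synthetase, one of 2.36 (24.7 and 126 CPM). Atf3 and Ddit4 were lower, at -1.25 and -0.60. By class, 19 to 22 of the 25 or 26 targets tested were higher in 5 classes, and 14 of 22 in mature PMN-like cells. That class had the fewest UMIs of the 6 (1496822 in DMSO and 2879175 in DAB), so its intervals are wide and fewer ratios can pass. Of all genes tested, 8.46% to 23.1% were called higher in those 5 classes and 13.8% in mature PMN-like cells. The lists were drawn up with earlier results of these libraries known, so their direction is no independent evidence.

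**Figure D5:**
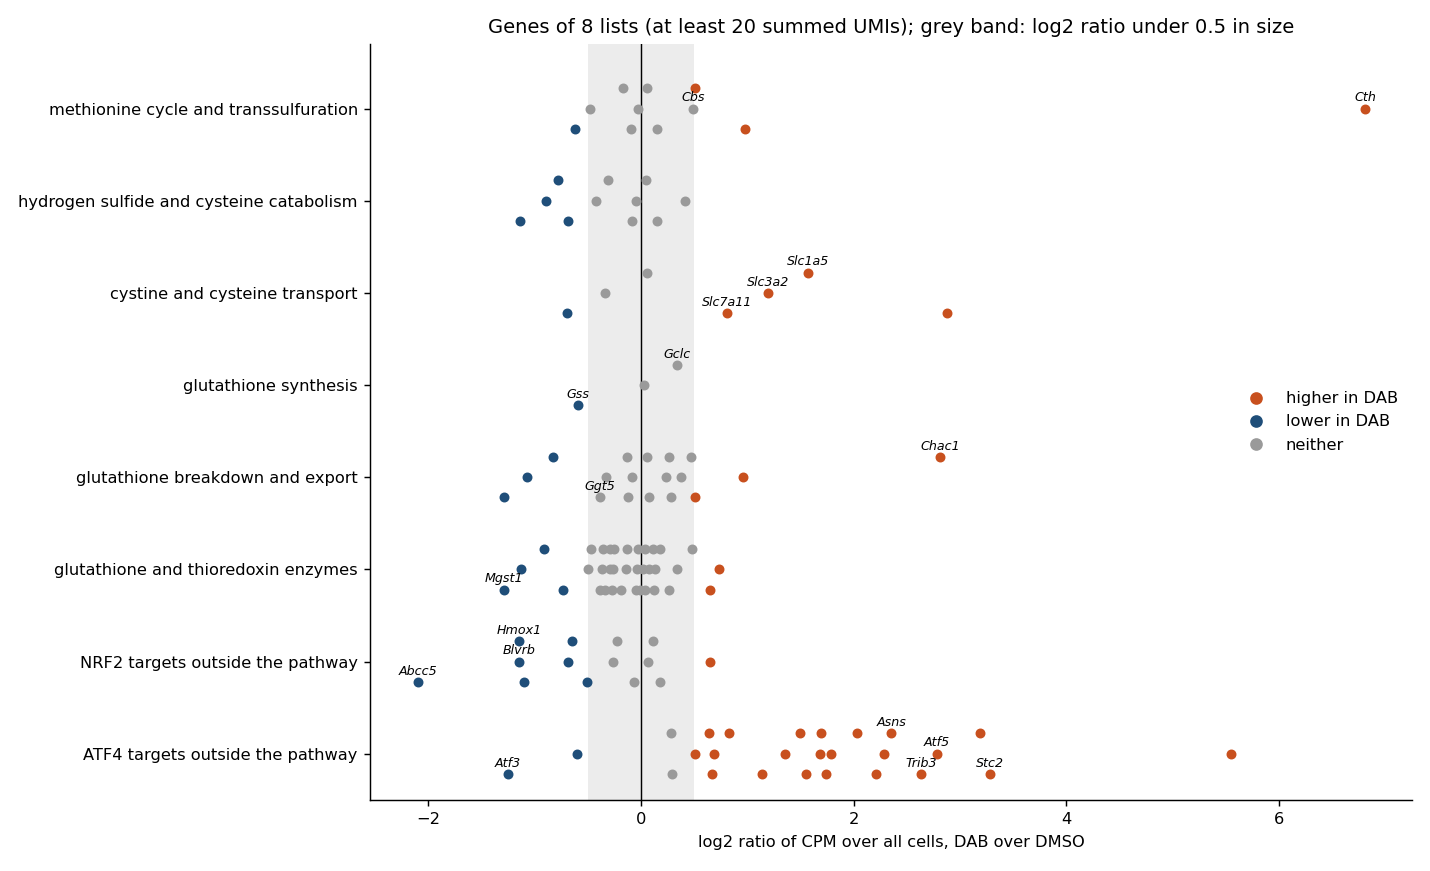
Log2 ratio of CPM over all cells, DAB over DMSO, of each gene with at least 20 summed UMIs in 8 gene lists (rows; points are genes, orange where called higher, blue where lower and grey where neither; small vertical offsets only separate points). ATF4 targets lie mostly to the right (median 1.62) and NRF2 targets to the left (median -0.38), and Cth at 6.81 is the point farthest to the right.

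The genes whose levels followed each gene most closely over 7 classes and 2 libraries were taken from 8084 genes. The measure was Pearson's r of log2(CPM + 10) over 14 points, which share libraries and depth and are not independent, and it is given as a description. For Cth these were Stc2 (r = 0.95), P2rx3 (0.93) and Asns (0.93), all higher in DAB over all cells. For Slc7a11 they were Fth1, the ferritin heavy chain (0.98), Tmem120a (0.97) and Cstb, a cysteine protease inhibitor (0.96). For Chac1 they were the arginine transporter Slc7a1 (0.93), the serine hydroxymethyltransferase Shmt2 (0.92) and the splicing factor Srsf1 (0.91). Ggt5 was followed by Kctd20 (0.98), Plekhg3 (0.97) and Oasl2 (0.97). The closest were Alkbh6, Glt8d1 and Mga for Gclc (0.94 to 0.95) and Lcmt1, Mgst3 and Iars2 for Gss (0.88 to 0.91). With 1 CPM added in place of 10, only 1 of the 3 genes was kept for Chac1, Gclc and Ggt5.

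The values over all cells depended in part on the mix of cells and on scaling. Chemokine-high granulocyte-like cells, with the highest Slc7a11, made up 7.44% of DMSO and 17.1% of DAB cells. With the same weight for each cluster in both libraries, the log2 ratio of Slc7a11 was 0.69 in place of 0.81, and that of the other 6 genes stayed within its interval. Counted as mean UMIs per cell, with no scaling to depth, the median ratio of all genes was 0.37, Gss was at -0.20 and Ggt5 at 0.0059, so that both lay below that median, and Gclc was at 0.73. As a mean of CPM over cells Gss was at -0.46 and Gclc at 0.66. Under both scalings, then, the call of Gss ended and Gclc passed 0.5, for mean UMIs per cell with the shift of all genes left in. Cth, Slc7a11 and Chac1 were higher under each of these scalings and with median-of-ratios scaling.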

How the data were processed

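Single-cell RNA of MDSCs from mouse bone marrow was measured in 2 libraries, 1 treated with dabrafenib and 1 with DMSO. The deposited values are raw, unnormalized UMI counts of each gene in each barcode, which the authors made against mm10 using Cell Ranger 7.0.0. The sources used here do not give its intron setting.

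A mitochondrial share above 10% removed 55 DMSO and 89 DAB barcodes, among them every barcode more than 4 median absolute deviations out. Doublets, scored against simulated ones, were removed at 0.8% per 1000 cells (768 DMSO, 1066 DAB). Pearson residuals of 3000 variable genes, without the 134 genes of the lists, with cell cycle and mitochondrial scores regressed out, gave 40 principal components. These were aligned by mutual nearest neighbours and clustered with Leiden at resolution 0.9, with seed 1. A cluster took the name of the marker list (of 15) with the highest mean log2 fold, if 3 or more markers, and most of those detected, reached a log2 fold of 1 and the leading 10 genes held more of its markers than of any other list. The mature PMN, intermediate granulocyte and chemokine-high granulocyte names also needed S100a8 or Csf3r to be higher than in the other cells, by any amount. The lists and the naming rule follow earlier work on these libraries. The tools were leidenalg 0.10.2, igraph 0.11.9, scikit-learn 1.9.0, pandas 2.3.3, scipy 1.17.1, numpy 2.4.6 and matplotlib 3.10.9 under Python 3.11.15.

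Ratios came from the whole table with exact conditional binomial intervals, levels with Poisson and shares with Clopper-Pearson intervals at 95%. The calculation was tested on simulated data. The genes, gene lists and markers were chosen with earlier results of these data known. The text names the 7 genes, from each list up to 4 called genes per direction with at least 20 CPM in a library, and the 3 genes of most similar profile. Other genes were named after their values were seen. Gene positions are from GENCODE M21 on GRCm38.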

Additional observations from a re-analysis of the deposited data

Results flagged for a closer look

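Slc7a11 was the 1 gene of the 7 that passed the rule in opposite directions in different classes. The log2 ratio of DAB over DMSO was -0.54 in mature monocyte-like cells, against 1.66 in intermediate granulocyte-like, 1.06 in chemokine-high granulocyte-like and 0.70 in mature PMN-like cells. With 1 library per condition the difference between these classes was not tested. The mature monocyte-like value was called lower in 2 of 6 other clusterings.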

How the results depend on the processing

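No paired analysis was possible because each condition has 1 library. Values over all cells changed by more than their counting interval as follows. As a mean over cells, the log2 ratio was 1.25 for Slc7a11, 2.61 for Chac1, 0.66 for Gclc and -0.46 for Gss, which ended the Gss call. As mean UMIs per cell, it was 1.20 for Slc7a11, 3.20 for Chac1, 0.73 for Gclc, -0.20 for Gss and 0.0059 for Ggt5. With equal cluster weights Slc7a11 was at 0.69, and without cluster N at 0.76. Filters on cells, doublet removal, the median of ratios and leaving out barcodes found in both libraries changed none of the 7 beyond its interval. The numbers of gene and class pairs ranged from 14 to 18 higher and from 6 to 8 lower over 6 other clusterings. No share of all genes called under those clusterings stands beside these counts. They only describe the 7 genes, which were chosen on this comparison. Resolution 0.5 gave no granulocyte progenitor-like class. A repeat within classes without cell filters on the same cluster labels was not run, because unlabelled cells would not enter it, and the clusterings without doublet removal and without 2212 genes that differ 2-fold, the setting without cluster N and that without shared barcodes were added after seeing the data.

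Shares of cells with a UMI follow depth. Without thinning the DMSO and DAB percentages were 0.233 and 16.9 for Cth, 35.4 and 59.5 for Slc7a11, 2.98 and 20.1 for Chac1, 10.6 and 16.8 for Gclc, 14.8 and 14.0 for Gss, and 16.0 and 15.5 for Ggt5, and for Cbs 0.143 in DAB. Thinned to 3000 UMIs they were 18.7 and 34.0 for Slc7a11, 0.699 and 5.46 for Chac1, 3.44 and 5.04 for Gclc, 4.45 and 2.91 for Gss, 6.83 and 5.27 for Ggt5, and for Cth 5.37 in DAB. With a log2 ratio of at least 1 required, the lists kept 1 higher and 0 lower for the methionine cycle, 1 lower for sulfide catabolism, 3 higher and 0 lower for transport (Slc7a11 dropped out), 0 lower for synthesis, 1 higher for breakdown, 0 higher and 2 lower for glutathione and thioredoxin enzymes, 0 higher and 4 lower for NRF2 targets and 17 higher and 1 lower for ATF4 targets. In the order given, these lists had 11, 11, 7, 3, 18, 35, 14 and 26 genes with at least 20 UMIs. For this stricter cutoff no share of all genes stands beside the counts. Whether they exceed such a share was not tested, and they only describe the lists. With 1 CPM added, 1 of 3 most similar genes was kept for Chac1, Gclc and Ggt5. Intervals cover counting error, not the spread between cultures.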
